A study of Homo sapiens with 12 samples.

Results

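Cadherins are calcium-dependent adhesion proteins of the cell surface. The report follows their genes in SK-UT-1, an established human uterine leiomyosarcoma cell line, after inhibition of the bromodomain and extra-terminal (BET) proteins, which read acetylated histones. The genes were those with a row whose symbol is CDH followed by a digit or starts with PCDH, with antisense RNAs and pseudogenes left out. The rule gave 82 of the 22784 symbols in the table. Of these, 14 belonged to the PCDHA cluster, 15 to PCDHB and 22 to PCDHG, and the other 31 were CDH genes and non-clustered protocadherins. Another 5 symbols matched by spelling and were left out as pseudogenes or a divergent transcript, namely PCDH10-DT, PCDHB17P, PCDHB18P, PCDHGB8P and PCDHGB9P.

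Cells were exposed for 48 h to vehicle (DMSO), 5 µM JQ1 or 5 µM I-BET 762, and strand-specific total RNA libraries were sequenced. JQ1 and I-BET 762 are small molecules that compete with acetylated histones for the bromodomains. Values were analysed for 3 DMSO, 4 JQ1 and 3 I-BET 762 libraries, and DMSO replicate 16 and I-BET 762 replicate 24 were not analysed here. All libraries came from the same cell line, and nothing in the labels says that they came from separate cultures, so p-values measure the spread between these libraries, which may be technical. In bulk RNA, fewer cells that express a gene and less of its RNA per cell cannot be told apart. Libraries held 35564586 to 39658989 reads on genes, and replicates of a group differed by more than counting error in all 12 pairs. Of 9 smooth muscle markers, 8 had a row, MYH11 had none, and MYOCD averaged 0.303 normalized counts in DMSO. The summed smooth muscle markers were 20500 to 21136 normalized counts in DMSO, 10662 to 11269 with JQ1 and 11822 to 12374 with I-BET 762. ACTA2 and CALD1 made up most of that sum and were lower after treatment, as were TAGLN, CNN1, DES and LMOD1. TAGLN averaged 1599, 126 and 157 in DMSO, JQ1 and I-BET 762, whereas SMTN averaged 2324, 2644 and 2657. Summed endothelial markers were at most 12.2 in any library.

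The classical cadherins join neighbouring cells through their extracellular domains and bind catenins with their cytoplasmic tails, which couples them to actin. Type I members include E-, N- and P-cadherin, and type II members include cadherin-11 of mesenchymal cells. Protocadherins form the other large branch and are best known from the nervous system. The clustered protocadherins lie side by side on chromosome 5. In the PCDHA and PCDHG clusters, each variable exon has its own promoter and is spliced to constant exons common to the cluster, whereas each PCDHB gene is a single exon. The last variable exons of PCDHA and PCDHG are called C-type. Many of the other variable promoters share a short conserved element with a CGCT core, at which CTCF binds and which cohesin-mediated looping brings to distant enhancers.

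In Gencode V44 (hg38), the measured PCDHA genes spanned chr5:140786136-141012347, the PCDHB genes chr5:141094606-141249365 and the PCDHG genes chr5:141330514-141512977, all on the plus strand. Promoter sequence from RefSeq (GRCh38.p14) was matched for 65 of the 82 genes. The stretches shown next are bases upstream of the annotated start, 5′ to 3′ on the plus strand. They were chosen because they belong to genes of the 3 clusters that fell and to C-type genes, of which PCDHAC1 rose, PCDHAC2 was not a DEG and PCDHGC3 was below the filter. Capitals mark the motif TGNCGCT.
PCDHA4, chr5:140806948-140807036: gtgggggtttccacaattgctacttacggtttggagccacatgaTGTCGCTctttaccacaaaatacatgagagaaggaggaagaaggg
PCDHB14, chr5:141223223-141223342: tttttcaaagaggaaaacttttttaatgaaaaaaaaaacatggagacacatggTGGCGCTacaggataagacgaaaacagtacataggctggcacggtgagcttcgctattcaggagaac
PCDHGA4, chr5:141354901-141355020: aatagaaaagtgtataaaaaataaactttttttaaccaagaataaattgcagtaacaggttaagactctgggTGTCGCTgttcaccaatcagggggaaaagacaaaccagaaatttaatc
PCDHGA10, chr5:141412867-141412986: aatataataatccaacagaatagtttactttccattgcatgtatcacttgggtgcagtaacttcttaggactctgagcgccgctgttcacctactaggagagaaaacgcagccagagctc
PCDHGC3, chr5:141475846-141475946: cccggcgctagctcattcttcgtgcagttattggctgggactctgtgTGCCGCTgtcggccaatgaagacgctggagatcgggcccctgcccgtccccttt
PCDHAC1, chr5:140926179-140926298: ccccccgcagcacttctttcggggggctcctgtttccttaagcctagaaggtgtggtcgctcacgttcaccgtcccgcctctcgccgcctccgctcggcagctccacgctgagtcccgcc
PCDHAC2, chr5:140966356-140966469: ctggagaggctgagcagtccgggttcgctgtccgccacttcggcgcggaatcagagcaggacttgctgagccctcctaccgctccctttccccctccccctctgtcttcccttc

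TGNCGCT was written after these promoters had been read, so its count is a description of them. It was searched for in the 120 bases before each start. On the sense strand it was found in 10 of 11 PCDHA promoters other than C-type, in 12 of 13 PCDHB promoters and in 6 of 18 PCDHG promoters other than C-type. Among the 4 C-type promoters with a sequence, PCDHGC3 alone held it, and none of the 19 promoters of CDH genes and non-clustered protocadherins did on that strand. On either strand it was found in 4 of these 19 (21.1%), each time on the antisense strand. Of 27305 promoters of all genes, 2.35% held the motif on the sense strand and 4.31% on either strand. The first match began 14 to 84 bases before the start. PCDHGA10 held gccgct without the leading T, so it was not counted. PCDHGA1, PCDHGA7, PCDHGA8, PCDHGA9, PCDHGA11, PCDHGB1, PCDHGB6 and the C-type PCDHGC4 likewise held gccgct. PCDHGA2, PCDHGA6 and the C-type PCDHAC1 held gtcgct. Outside the clusters, CDH12 held gccgct. PCDHGB4 and PCDHGB5 were counted through TGGCGCT and also held gccgct elsewhere. The counts are thus of the exact letters only, and the shorter form was not counted over all promoters.

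Expression was tested with limma on log2(normalized count + 1), with all 10 libraries in a single model. Only genes that reached a normalized count of 10 in 3 or more libraries were tested. A differentially expressed gene (DEG) had a Benjamini-Hochberg adjusted p under 0.05 over the 14839 tested symbols and a fold change over 1.5. Of the 82 genes, 37 were tested, namely 15 outside the clusters, 4 PCDHA, 8 PCDHB and 10 PCDHG genes. The other 45 were too low. With JQ1, 26 of the 37 fell and 5 rose, where 22.8% of all tested symbols fell and 13.3% rose. With I-BET 762, 24 fell and 5 rose, against 17.9% and 8.96% of all tested symbols. Both comparisons use the same DMSO libraries. Over the 37 genes the median log2 fold change was -1.67 for JQ1 and -1.12 for I-BET 762, whereas over all tested symbols it was 0.01 and 0.00. Scaling every library to equal totals moved the median of all symbols to -0.18 with JQ1 and -0.10 with I-BET 762. Fold changes here are on the log2(normalized count + 1) scale, which understates the change of low genes. Of the tested genes, 7 passed the filter through the DMSO libraries alone (CDH22, PCDHA10, PCDHGA4, PCDHGA6, PCDHGA9, PCDHGA12 and PCDHGB2), so a lower value after treatment was built into their being tested. PCDHA4, PCDHB4, PCDHB9 and PCDHGA1 reached 10 in fewer than 3 treated libraries and so also needed their DMSO values to pass. Likewise, 2 genes, PCDH9 and PCDH19, passed through treated libraries alone. CDH26 and PCDHAC1 reached 10 in fewer than 3 DMSO libraries and so passed because of their treated values. A mean of at least 10 over all libraries was also required instead, a choice made after seeing the data. It left 31 tested genes, of which 21 fell and 5 rose with JQ1 and 20 fell and 5 rose with I-BET 762. PCDHGA4, PCDHGA9, PCDHGA12, PCDH9 and PCDH19 stayed in, with means of 10.7, 10.1, 13.4, 11.9 and 14.7, so this filter did not remove the limit. The share of all symbols called under it was not counted.

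**Figure D1:**
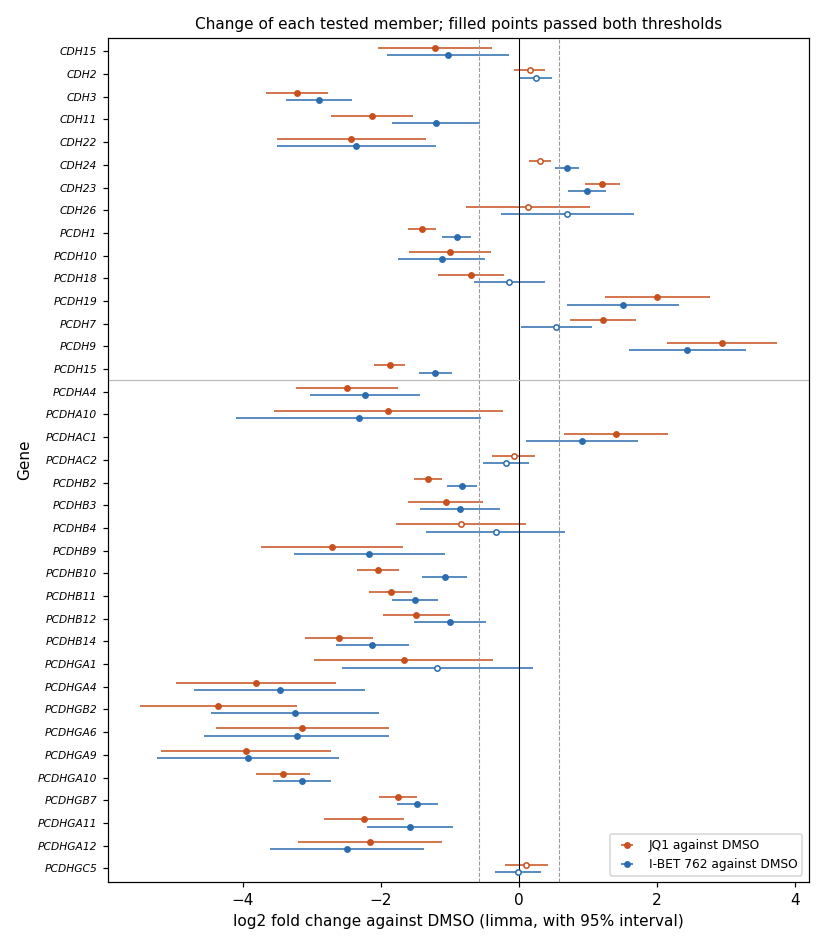
Log2 fold change of the 37 tested genes against DMSO with JQ1 (orange) and I-BET 762 (blue); horizontal lines are 95% intervals from limma, filled points are DEGs and dashed lines mark 1.5-fold. Points of the clustered genes, below the grey line, lie mostly left of 0, and PCDHAC1, PCDHAC2 and PCDHGC5 do not follow them.

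Among the type I classical cadherins, P-cadherin fell sharply and N-cadherin was not a DEG. CDH3 (chr16:68636189-68727468), which encodes P-cadherin of basal epithelia, measured 189, 170 and 166 normalized counts in the DMSO libraries. It measured 23.1, 16.3, 18.0 and 15.2 with JQ1 and 29.5, 18.1 and 21.7 with I-BET 762. No treated library came near the DMSO range. CDH3 had a log2 fold change of -3.21 ± 0.21 (SE, n = 4 JQ1 and 3 DMSO libraries) with JQ1, with an adjusted p of 1.5e-09 in limma. With I-BET 762 it was -2.89 ± 0.23, with an adjusted p of 2.6e-08. The 6 epithelial markers moved the same way, with summed normalized counts of 1226 to 1290 in DMSO, 512 to 606 with JQ1 and 507 to 545 with I-BET 762. Of these, KRT19 made up most and ESRP1 was lowest, at 7.76 in DMSO, and their part in the CDH3 result was not tested.

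CDH2, which encodes N-cadherin and is typical of mesenchymal cells, measured 190, 239 and 210 in DMSO, 262, 233, 233 and 222 with JQ1, and 243, 234 and 278 with I-BET 762. The groups overlapped. Its log2 fold change was 0.16 ± 0.11 for JQ1 and 0.24 ± 0.11 for I-BET 762, and neither passed the test. With equal totals the JQ1 value of CDH2 was -0.03. CDH15, the M-cadherin of muscle precursors, was low throughout, with 32.9, 25.0 and 17.3 normalized counts in DMSO. It measured 13.2, 7.62, 18.0 and 5.07 with JQ1 and 8.86, 13.0 and 12.8 with I-BET 762. JQ1 replicate 19 lay inside the DMSO range and all I-BET 762 libraries lay below it. CDH15 fell with JQ1 (log2 fold change -1.21 ± 0.39, limma adjusted p = 0.0107) and with I-BET 762 (-1.03 ± 0.41, adjusted p = 0.0424). Both calls depended on single libraries. Without DMSO replicate 13 the log2 fold change was -1.0 with JQ1 (limma adjusted p = 0.0645) and -0.81 with I-BET 762 (adjusted p = 0.163). The I-BET 762 call was also lost without DMSO replicate 14 and without any of the 3 I-BET 762 libraries, at limma adjusted p-values of 0.0968, 0.134, 0.0607 and 0.0647. CDH1, the E-cadherin of epithelia, was below the filter, with 13.7 as its highest normalized count, and CDH4 reached 1.10.

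The type II cadherins did not move together. CDH11 (chr16:64943753-65126112), the mesenchymal cadherin-11, measured 58.1, 74.0 and 57.3 normalized counts in DMSO. It measured 22.0, 15.2, 10.004 and 10.1 with JQ1 and 31.5, 29.1 and 20.7 with I-BET 762. All treated libraries lay below DMSO. The log2 fold change was -2.12 ± 0.28 for JQ1 (limma adjusted p = 4.6e-06) and -1.20 ± 0.30 for I-BET 762 (adjusted p = 0.00252). CDH24, a type II cadherin that binds catenins, had the highest level per length of all the genes, at 355 normalized counts per kb of exon in DMSO. It measured 1408, 1257 and 1322 in DMSO, 1663, 1395, 1715 and 1820 with JQ1, and 2177, 2095 and 2170 with I-BET 762. The I-BET 762 libraries stood above all the others, while JQ1 replicate 18 lay inside the DMSO range. CDH24 rose with I-BET 762 (log2 fold change 0.69 ± 0.08, limma adjusted p = 1.9e-06). With JQ1 the log2 difference of 0.30 ± 0.07 had an adjusted p of 0.00179 in limma and stayed under 1.5-fold, so CDH24 was not a DEG there. CDH22 had 12.6, 18.5 and 10.9 normalized counts in DMSO, and the treated libraries had at most 3 reads each. From the summed reads, 45 in DMSO, the ratio of DMSO to JQ1 was 7.63 (95% interval 3.42 to 20.1) and that of DMSO to I-BET 762 was 7.07 (3.01 to 20.3). These exact intervals, as all read intervals here, cover counting error only. The other type II genes with a row were below the filter, with highest normalized counts of 7.75 for CDH10, 3.26 for CDH6, 2.2 for CDH18 and CDH20, 1.85 for CDH5, 1.10 for CDH12 and 1.0 for CDH8. CDH7, CDH9 and CDH19 had no row.

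CDH23 (chr10:71396920-71815947) rose. The gene encodes an atypical cadherin that forms tip links of inner ear hair cells together with protocadherin-15. It measured 86.2, 70.3 and 81.0 normalized counts in DMSO, 158, 181, 204 and 194 with JQ1, and 156, 159 and 157 with I-BET 762. All treated libraries were above all DMSO libraries. The log2 fold change was 1.21 ± 0.12 for JQ1 and 0.99 ± 0.13 for I-BET 762, with limma adjusted p-values of 2.1e-07 and 7.35e-06. PCDH15 (chr10:53802771-55627942), its tip-link partner, went the other way, with 553, 620 and 554 in DMSO, 132, 173, 152 and 173 with JQ1, and 265, 240 and 240 with I-BET 762. The 3 groups of libraries did not overlap for PCDH15. It fell by 1.87 on the log2 scale with JQ1 (SE 0.11, limma adjusted p = 2.2e-10) and by 1.21 with I-BET 762 (SE 0.11, adjusted p = 1.7e-07). Exons of CDH23 overlap annotated antisense transcripts over 3505 bases, those of PCDH15 over none, and whether the counting used strand is not given in the sources used here. CDH26, an atypical cadherin of epithelia, spanned 8.19 to 18.4 in DMSO, 6.0 to 21.3 for JQ1 and 15.0 to 25.6 for I-BET 762. It was not a DEG, and its JQ1 value of 0.13 ± 0.43 took either sign as single libraries were left out (-0.13 to 0.48). CDH13, CDH16 and CDH17 were below the filter, with highest values of 2.01, 3.26 and 1.10.

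**Figure D2:**
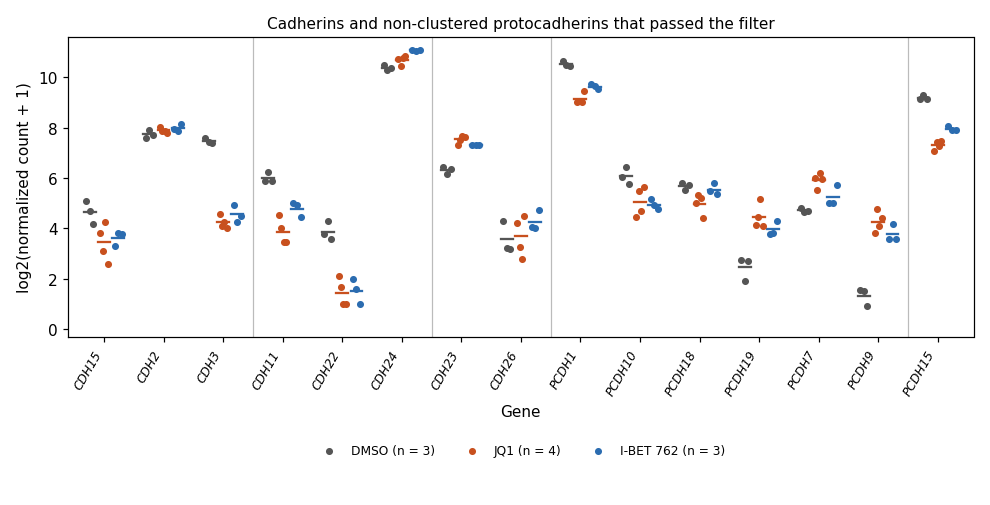
Log2(normalized count + 1) of the 15 tested genes outside the clusters in each DMSO (grey), JQ1 (orange) and I-BET 762 (blue) library; short lines are group means and vertical lines separate type I, type II and other cadherins, delta protocadherins and PCDH15. CDH3, CDH11 and PCDH15 sit lower in all treated libraries, and CDH23, PCDH19 and PCDH9 sit higher.

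Delta protocadherins, the non-clustered group with conserved cytoplasmic motifs, split in direction. Of 6 tested, 3 fell and 3 rose with JQ1, and 2 fell and 2 rose with I-BET 762, where 22.8% and 17.9% of all tested symbols fell and 13.3% and 8.96% rose. Without PCDH9 and PCDH19, whose rise the filter fixed, the only DEG that rose was PCDH7 with JQ1. PCDH1 (chr5:141853090-141879246), an adhesion protein of airway epithelium and endothelium, was the most abundant, with 1590, 1439 and 1398 normalized counts in DMSO. It measured 511, 528, 517 and 688 with JQ1 and 838, 795 and 731 with I-BET 762, and the 3 groups did not overlap. It fell by 1.4 on the log2 scale with JQ1 (SE 0.09, limma adjusted p = 1.9e-09) and by 0.90 with I-BET 762 (SE 0.10, adjusted p = 1.3e-06). PCDH10, which is active in neural circuits, measured 63.9, 85.1 and 52.8 in DMSO, 20.9, 43.5, 25.0 and 48.7 with JQ1, and 34.4, 29.1 and 26.6 with I-BET 762. All treated libraries of PCDH10 lay below DMSO. Its log2 fold change was -1.0 ± 0.28 for JQ1 (limma adjusted p = 0.00432) and -1.12 ± 0.30 for I-BET 762 (adjusted p = 0.00402). PCDH18 measured 54.2, 45.3 and 51.9 in DMSO, 30.8, 39.2, 36.0 and 20.3 with JQ1, and 43.3, 54.1 and 40.4 with I-BET 762. Its JQ1 libraries lay below DMSO and its I-BET 762 libraries overlapped DMSO. It fell with JQ1 (log2 fold change -0.70 ± 0.23, limma adjusted p = 0.0116). Without JQ1 replicate 20 the value was -0.51 and under 1.5-fold. With I-BET 762 it was -0.14 ± 0.24 and not a DEG.

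The delta protocadherins that rose all started low. PCDH9 had 1.94, 1.85 and 0.910 normalized counts in DMSO, at most 3 reads per library. It reached 13.2, 26.1, 16.0 and 20.3 with JQ1 and 10.8, 17.0 and 10.8 with I-BET 762, each above every DMSO library. The fitted log2 fold change was 2.94 ± 0.37 for JQ1 and 2.43 ± 0.40 for I-BET 762, and its size depends on the added count of 1. PCDH19, a gene of chromosome X known from a form of epilepsy, measured 5.81, 2.77 and 5.46 in DMSO. It measured 16.5, 20.7, 35.0 and 16.2 with JQ1 and 12.8, 13.0 and 18.7 with I-BET 762. Here too the treated libraries all exceeded DMSO, and the fitted log2 fold change was 2.0 ± 0.36 for JQ1 and 1.51 ± 0.38 for I-BET 762. PCDH9 and PCDH19 passed the filter through treated libraries alone, so their rise was built into their being tested and no p-value is given. PCDH7 measured 27.1, 24.0 and 24.6 in DMSO, 63.7, 44.6, 72.0 and 61.9 with JQ1, and 31.5, 31.1 and 52.2 with I-BET 762. All its treated libraries exceeded DMSO. The gene rose with JQ1 (log2 fold change 1.21 ± 0.23, limma adjusted p = 0.000159). With I-BET 762 its value of 0.54 ± 0.24 had an adjusted p of 0.0627 in limma, and without I-BET 762 replicate 22 it was 0.67 and passed (adjusted p = 0.0475). PCDH8, PCDH11X and PCDH17 were below the filter, with highest values of 1.10, 3.0 and 2.77, and PCDH20 had no row. PCDH12, an endothelial protocadherin, reached 12.02 in a single DMSO library and was also below the filter.

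The clustered protocadherins fell in all 3 clusters, apart from the 3 tested C-type genes PCDHAC1, PCDHAC2 and PCDHGC5. The C-type genes PCDHGC3 and PCDHGC4 were below the filter and had lower means after treatment. Of 22 tested clustered genes, 18 fell with JQ1 and 17 with I-BET 762, against 22.8% and 17.9% of all tested symbols, and PCDHAC1 rose with each inhibitor. C-type genes were set apart after the values had been seen, so no test was run on that split. Among the 19 tested genes that were not C-type, the median log2 fold change was -2.16 for JQ1 and -2.12 for I-BET 762. All 19 values were below 0 in each comparison. Of these 19, PCDHA10 and 5 PCDHG genes passed the filter through DMSO alone, so their falls were built into the counts and medians. PCDHA4, PCDHB4, PCDHB9 and PCDHGA1 reached 10 in fewer than 3 treated libraries. Their being tested thus also depended on DMSO, which favoured a fall in the same counts and medians. Setting treated libraries with at most 3 reads to 3 reads left both medians as they were. Over all 46 such genes with a row, tested or not, all JQ1 libraries were below all DMSO libraries for 32. The I-BET 762 libraries were all below DMSO for 32 as well. The share of all symbols separated in this way was not counted, so these numbers have no background to be set against. JQ1 libraries had at most 3 reads each for 29 of the 46 and I-BET 762 libraries for 27, and 5 were already at that level in DMSO.

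Summed over each set, the shift was visible in every library. The 15 PCDHB genes together had 1534, 1427 and 1437 normalized counts in DMSO, 464, 425, 440 and 490 with JQ1, and 602, 680 and 712 with I-BET 762. The JQ1 mean was 3.22-fold lower and the I-BET 762 mean 2.21-fold lower than DMSO. The 19 PCDHG genes other than C-type had 918, 807 and 857 in DMSO, 157, 141, 168 and 166 with JQ1, and 214, 186 and 213 with I-BET 762. That was 5.44-fold lower with JQ1 and 4.22-fold lower with I-BET 762. For the 12 PCDHA genes other than C-type, the sums were 107, 89.7 and 91.9 in DMSO, 14.3, 38.1, 17.0 and 21.3 with JQ1, and 19.7, 16.0 and 20.7 with I-BET 762. Sums of the C-type genes overlapped between groups. PCDHAC1 and PCDHAC2 together averaged 109 ± 10.1 (SD, n = 3) in DMSO, 126 ± 11.9 (SD, n = 4) for JQ1 and 109 ± 19.4 (SD, n = 3) for I-BET 762. PCDHGC3, PCDHGC4 and PCDHGC5 together averaged 201 ± 24.9, 196 ± 36.2 and 177 ± 18.1 in the same groups. Most of this sum was PCDHGC5, with means of 170, 185 and 168, so it does not show the course of PCDHGC3 and PCDHGC4.

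**Figure D3:**
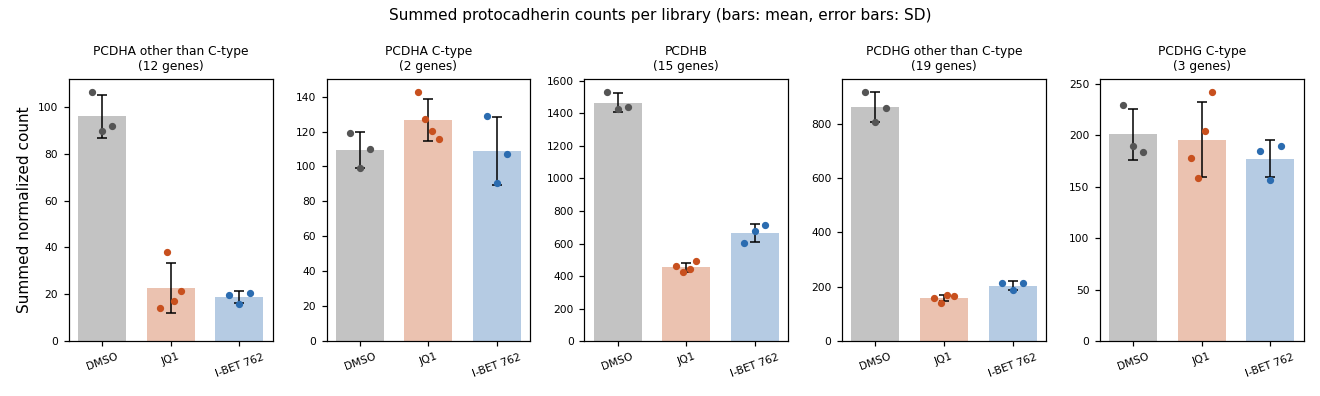
Summed normalized counts per library for the PCDHA, PCDHB and PCDHG genes, with C-type genes in panels of their own; bars are group means, error bars SD and points single libraries (3 DMSO, 4 JQ1, 3 I-BET 762). In the panels without C-type genes all treated libraries lie below all DMSO libraries, and in both C-type panels the groups overlap.

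Of the 8 tested PCDHB genes, 7 fell with each inhibitor, where 22.8% of all tested symbols fell with JQ1 and 17.9% with I-BET 762. PCDHB2 (chr5:141094606-141098703) was the most abundant per length, at 135 normalized counts per kb of exon in DMSO, and measured 521, 543 and 592 normalized counts there. It measured 247, 209, 217 and 208 with JQ1 and 278, 309 and 347 with I-BET 762. The treated libraries were all below DMSO, and the JQ1 libraries were below the I-BET 762 libraries. The log2 fold change was -1.32 ± 0.10 for JQ1 and -0.83 ± 0.10 for I-BET 762 (limma adjusted p = 4.8e-09 and 4.4e-06). Of the 4098 exon bases of PCDHB2, 1797 overlap annotated antisense transcripts, and whether the counting used strand is not given. PCDHB10 measured 290, 280 and 244 in DMSO, 67.0, 60.9, 53.0 and 83.2 with JQ1, and 132, 125 and 127 with I-BET 762. For PCDHB10 the 3 groups did not overlap. It fell by 2.04 on the log2 scale with JQ1 (SE 0.14) and by 1.07 with I-BET 762 (SE 0.15). PCDHB11 measured 375, 288 and 288 in DMSO, 72.5 to 98.4 with JQ1 and 92.5 to 127 with I-BET 762, with log2 fold changes of -1.86 ± 0.15 and -1.51 ± 0.16.

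PCDHB14, whose upstream stretch is printed with its motif, was even across DMSO, at 158, 156 and 157 normalized counts. It measured 18.7, 18.5, 36.0 and 31.4 with JQ1 and 32.5, 43.1 and 31.5 with I-BET 762. PCDHB14 had a log2 fold change of -2.60 ± 0.23 for JQ1 and -2.12 ± 0.25 for I-BET 762, with limma adjusted p-values of 5.4e-08 and 2.2e-06. PCDHB9 fell from 26.5 ± 1.78 (SD, n = 3) in DMSO to 3.42 ± 1.62 for JQ1 (n = 4) and 6.31 ± 5.17 for I-BET 762 (n = 3). It reached 10 in only 1 treated library, so it was tested only because of its DMSO values. PCDHB12 fell from a mean of 53.0 to 18.5 and 26.1, and PCDHB3 from 43.0 to 20.8 and 23.5. For PCDHB3 with I-BET 762, the log2 fold change of -0.85 became -0.74 without I-BET 762 replicate 21, with an adjusted p of 0.0547 in limma. PCDHB4, named after its values were seen as the remaining tested gene, overlapped between groups, with 12.1 ± 3.35 in DMSO, 6.56 ± 2.73 with JQ1 and 10.2 ± 6.0 with I-BET 762. Below the filter, the highest values were 15.5 for PCDHB13, 13.6 for PCDHB15, 12.6 for PCDHB5, and 3.87 or less for PCDHB6, PCDHB7, PCDHB8 and PCDHB16. PCDHB genes resemble each other. Stretches of 75 bases that recur in another gene made up 7.74% of PCDHB4 and 27.8% of PCDHB10, the lowest and highest among the 8, so some reads could be ambiguous between them.

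In the PCDHG cluster, 9 of 10 tested genes fell with JQ1 and 8 with I-BET 762, against 22.8% and 17.9% of all tested symbols. Of these 10, 5 passed the filter through DMSO alone, and among the other 5, 4 fell with JQ1 and 3 with I-BET 762. The other 5 include PCDHGA1, which reached 10 in only 1 treated library and so also passed because of DMSO. PCDHGB7 was the highest per length, at 122 normalized counts per kb of unshared exon in DMSO. It measured 369, 312 and 336 normalized counts in DMSO, 101, 86.0, 106 and 108 with JQ1, and 144, 103 and 120 with I-BET 762. Its log2 fold change was -1.75 ± 0.13 for JQ1 and -1.47 ± 0.14 for I-BET 762 (limma adjusted p = 5.9e-09 and 2.0e-07). All treated libraries were below DMSO. PCDHGA10 (chr5:141412987-141512975) had the steepest fall among genes with more than 3 reads in treated libraries, from 216, 211 and 223 in DMSO to 18.7, 16.3, 24.0 and 19.3 with JQ1 and 20.7, 24.1 and 26.6 with I-BET 762. On the log2 scale its change was -3.42 ± 0.18 with JQ1 (limma adjusted p = 1.3e-10) and -3.14 ± 0.20 with I-BET 762 (adjusted p = 2.1e-09). PCDHGA11 averaged 98.9 ± 11.3 (SD, n = 3) in DMSO, 21.0 ± 7.59 (n = 4) for JQ1 and 33.3 ± 10.4 (n = 3) for I-BET 762. PCDHGA12 averaged 30.5, 6.26 and 5.96 in the same groups. Both were DEGs with each inhibitor, though PCDHGA12 passed the filter through DMSO alone.

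PCDHGB2, PCDHGA4, PCDHGA9 and PCDHGA6 had at most 3 reads in every treated library. PCDHGB2 had 28.1, 25.9 and 18.2 normalized counts in DMSO and a single read in the 4 JQ1 libraries together, against 77 reads in DMSO. The ratio of DMSO to JQ1 was 91.4 (95% interval 15.9 to 3657), and that of DMSO to I-BET 762, from 5 reads, was 14.5 (5.96 to 46.0). PCDHGA4, with the motif upstream, had 43.6, 27.7 and 23.7 in DMSO, and ratios of 20.0 (8.87 to 55.7) to JQ1 and 15.9 (7.04 to 44.3) to I-BET 762. For PCDHGA9 the ratios were 23.3 (9.64 to 73.3) and 23.1 (8.74 to 86.5), and for PCDHGA6 15.1 (5.56 to 57.7) and 16.0 (5.18 to 80.3). All 4 genes were DEGs with each inhibitor in limma. They passed the filter through DMSO alone, so a lower value after treatment was built into their being tested. PCDHGA1, named after its values were seen, fell with JQ1 (log2 fold change -1.67 ± 0.61) and was not a DEG with I-BET 762 (-1.18 ± 0.65, limma adjusted p = 0.127). No JQ1 library of PCDHGA1 reached 10, so a fall with JQ1 was built into its being tested. Below the filter, PCDHGA2, PCDHGA3, PCDHGA5, PCDHGA7 and PCDHGA8 had highest values of 3.70, 4.84, 15.5, 8.19 and 5.81. PCDHGB1, PCDHGB3, PCDHGB4, PCDHGB5 and PCDHGB6 had 5.46, 13.6, 5.81, 7.28 and 13.7. PCDHGB4 had 14 reads in DMSO and 0 in every treated library, which made it at least 1.33-fold lower with JQ1 and at least 1.46-fold lower with I-BET 762 against a floor of 3 reads per library.

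**Figure D4:**
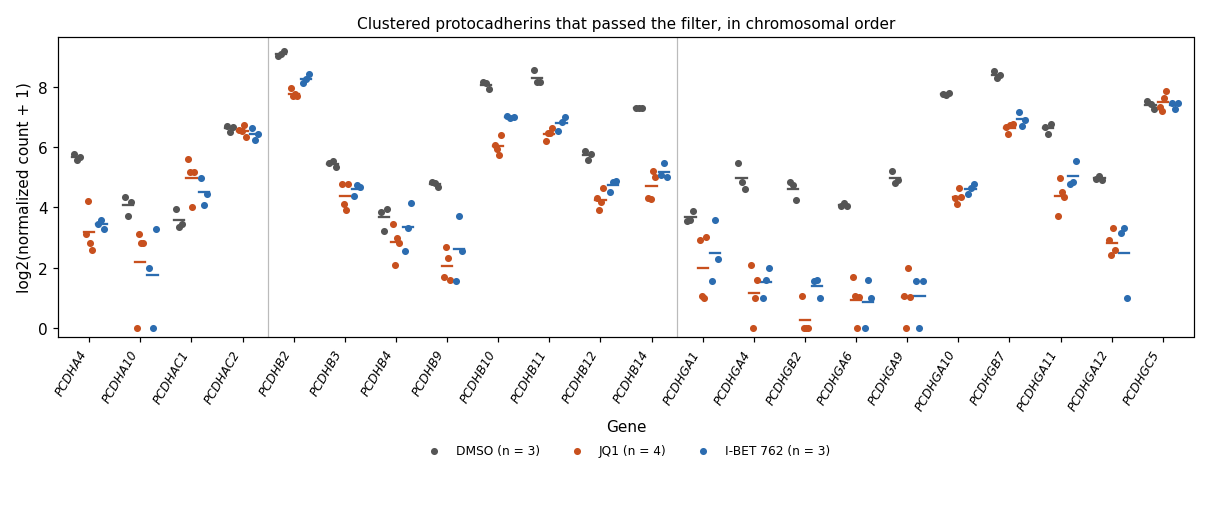
Log2(normalized count + 1) of the 22 tested clustered protocadherins in each DMSO (grey), JQ1 (orange) and I-BET 762 (blue) library, in chromosomal order; short lines are group means and vertical lines separate PCDHA, PCDHB and PCDHG. PCDHGA10 drops from 211 to 223 normalized counts in DMSO to 16.3 to 24.0 with JQ1, while PCDHAC2 and PCDHGC5 stay level with DMSO.

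Of 4 tested PCDHA genes, PCDHA4 and PCDHA10 fell with each inhibitor, where 22.8% of all tested symbols fell with JQ1 and 17.9% with I-BET 762. PCDHA4 (chr5:140807037-141012347) measured 54.2, 46.2 and 50.1 normalized counts in DMSO, 7.69, 17.4, 6.0 and 5.07 with JQ1, and 9.84, 11.03 and 8.86 with I-BET 762. Its treated libraries were all below DMSO. Only 2 of them reached 10, so PCDHA4 was tested only because of its DMSO values. The log2 fold change was -2.49 ± 0.35 for JQ1 and -2.23 ± 0.37 for I-BET 762. Because the filter favoured a fall, no p-value is given for PCDHA4. PCDHA10 measured 19.4, 12.02 and 17.3 in DMSO, 0, 7.62, 6.0 and 6.09 with JQ1, and 2.95, 0 and 8.86 with I-BET 762. Both PCDHA10 calls were fragile, and the gene passed the filter through DMSO alone. Without JQ1 replicate 17 the log2 fold change went from -1.90 to -1.17 (limma adjusted p = 0.117), and without I-BET 762 replicate 22 from -2.32 to -1.44 (adjusted p = 0.138). The JQ1 call was also lost with a pseudocount of 0.5, no filter or no intensity trend (limma adjusted p = 0.0599, 0.0522 and 0.0907), and the I-BET 762 call with no trend (adjusted p = 0.0677). The remaining PCDHA genes other than C-type were below the filter. Their highest values were 10.2 for PCDHA5, 7.75 for PCDHA8, 7.40 for PCDHA9, 5.81 for PCDHA7 and PCDHA13, 4.55 for PCDHA1, 3.87 for PCDHA11, 3.04 for PCDHA6, 2.2 for PCDHA2 and 1.85 for PCDHA12.

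The C-type genes differed among themselves. PCDHAC1 (chr5:140926299-141012347) measured 14.5, 9.25 and 10.01 normalized counts in DMSO, 48.3, 34.8, 15.0 and 35.5 with JQ1, and 30.5, 16.0 and 20.7 with I-BET 762. Every treated library exceeded every DMSO library. It rose by a log2 fold change of 1.4 ± 0.35 with JQ1 (limma adjusted p = 0.00221) and 0.91 ± 0.38 with I-BET 762 (adjusted p = 0.0482). Only 2 DMSO libraries reached 10, so PCDHAC1 was tested because of its treated values. That favoured a rise, and these p-values do not allow for it. The rise with I-BET 762 was at the threshold and was lost under several other settings, without DMSO replicate 14 or 15, without JQ1 replicate 20, and without I-BET 762 replicate 21 or 23 (log2 fold changes 0.79, 0.85, 0.91, 0.67 and 0.94, limma adjusted p = 0.131, 0.114, 0.0573, 0.191 and 0.0847). PCDHAC2 measured 105, 89.7 and 100.1 in DMSO, 94.5, 92.5, 105 and 80.1 with JQ1, and 98.4, 74.2 and 86.6 with I-BET 762, and the groups overlapped. Its log2 fold change was -0.08 ± 0.14 for JQ1 and -0.19 ± 0.15 for I-BET 762. PCDHGC5 (chr5:141489081-141512975) measured 187, 171 and 152 in DMSO, 163, 147, 196 and 235 with JQ1, and 176, 152 and 176 with I-BET 762. Neither comparison passed the test for PCDHGC5 (0.10 ± 0.15 with JQ1 and -0.01 ± 0.16 with I-BET 762), and its sign changed with equal totals or with single libraries left out.

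PCDHGC3 and PCDHGC4 did not share that level course. PCDHGC3, the C-type gene with the motif upstream, measured 25.2, 9.25 and 15.5 normalized counts in DMSO, 9.89, 6.53, 7.0 and 2.03 with JQ1, and 3.94, 3.01 and 8.86 with I-BET 762. PCDHGC4 measured 17.4, 9.25 and 16.4 in DMSO, 5.49, 5.44, 1.0 and 5.07 with JQ1, and 4.92, 1.0 and 4.92 with I-BET 762. Both genes were below the filter. When the filter was dropped, both fell with each inhibitor. The constant exons that PCDHA genes share, and those that PCDHG genes share, could lend reads to more than 1 symbol. PCDHA2 had 0 reads in 9 of 10 libraries while PCDHAC2 had 74 to 110, so reads of shared exons were not given to every gene of the cluster.

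Genes around the clusters were also looked at. Within 500 kb of the span of the 3 clusters, 26 protein-coding genes other than cadherins and protocadherins were tested, a set drawn up after the values of the clusters had been seen. PCDH1, which fell with each inhibitor, and PCDH12, below the filter, also lie in this window and are not among the 26. The median log2 fold change of the 26 was 0.15 for JQ1 and 0.04 for I-BET 762. With JQ1, ARAP3 fell (-1.93), HBEGF (1.82) and NDUFA2 rose. With I-BET 762, ARAP3 fell (-1.12), and HBEGF (1.40) and SLC25A2 rose. Over all tested symbols, 13.3% rose and 22.8% fell with JQ1, and 8.96% rose and 17.9% fell with I-BET 762. Whether the 26 differ from the clusters was not tested.

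JQ1 and I-BET 762 were compared directly at the same dose and time. Of the 37 genes, PCDH7 was higher with JQ1 than with I-BET 762, and CDH11, PCDH15 and PCDHB10 were lower, where 1.73% of all tested symbols were higher and 3.59% lower. PCDHB10 differed by -0.96 on the log2 scale (JQ1 minus I-BET 762, 95% interval -1.27 to -0.66, limma adjusted p = 0.000179). It remained a DEG in all alternatives except a threshold of 2-fold. PCDH15 differed by -0.66 (-0.88 to -0.43, adjusted p = 0.000327 in limma), and it dropped to -0.58, under 1.5-fold, without JQ1 replicate 17. The difference was -0.92 (-1.51 to -0.33) for CDH11 and 0.67 (0.19 to 1.15) for PCDH7, with limma adjusted p-values of 0.0232 and 0.0375. CDH11 was no longer a DEG without JQ1 replicate 19 (-0.78) or 20 (-0.79) or without I-BET 762 replicate 21 (-0.80) or 22 (-0.86). With no filter or with only the groups compared it was not a DEG either (limma adjusted p = 0.0561 and 0.0520). PCDH7 was no longer one without JQ1 replicate 17 (0.64), 19 (0.58) or 20 (0.65) or without I-BET 762 replicate 21 (0.56) or 22 (0.55). Nor was PCDH7 a DEG with equal totals (0.58), where the adjusted p was 0.0775 in limma, or with equal upper quartiles (0.64, adjusted p = 0.0501). PCDH7 also missed with no filter or with only the groups compared (limma adjusted p = 0.0867 and 0.0516). CDH24 (-0.39, interval -0.55 to -0.23), PCDH1 (-0.50, -0.70 to -0.30) and PCDHB2 (-0.50, -0.70 to -0.29) had adjusted p-values of 0.00141, 0.00124 and 0.00151 in limma and stayed under 1.5-fold. For the other 30 genes the adjusted p missed 0.05, which does not show that the inhibitors acted alike. The interval was -0.77 to 0.13 for CDH3, -0.66 to 0.12 for PCDHGA10, -0.31 to 0.14 for CDH2 and -0.26 to 1.25 for PCDHAC1.

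Catenins and their partners link the tails of classical cadherins to actin and are largely shared among cadherins. Of 16 tested genes of this list, 4 rose and 2 fell with JQ1, and 3 rose and 1 fell with I-BET 762, and the median log2 fold change was 0.09 and 0.16. Of all tested symbols, 13.3% rose and 22.8% fell with JQ1, and 8.96% rose and 17.9% fell with I-BET 762. CTNNB1, which encodes beta-catenin, averaged 17880 normalized counts in DMSO, and its log2 values of 0.44 ± 0.06 with JQ1 and 0.23 ± 0.06 with I-BET 762 stayed under 1.5-fold. CTNNA1, for alpha-catenin, had 0.24 ± 0.04 and 0.14 ± 0.05, and CTNND1, for delta-catenin, -0.43 ± 0.07 and -0.31 ± 0.08, all under 1.5-fold. With equal totals, CTNND1 was -0.61 with JQ1 and passed. AFDN, which encodes the nectin-binding scaffold afadin, rose by 1.38 ± 0.05 with JQ1 and 1.25 ± 0.06 with I-BET 762. NECTIN1 rose by 0.94 ± 0.08 and 0.67 ± 0.09, the second of which was 0.57 and under 1.5-fold with equal totals. CTNNAL1, an alpha-catenin relative, rose by 0.90 ± 0.06 and 0.74 ± 0.06. PLEKHA7, an adherens junction protein that binds delta-catenin, fell by 1.29 (SE 0.36) and 1.17 (SE 0.38) on the log2 scale. Its I-BET 762 value was -0.93 without I-BET 762 replicate 23, with an adjusted p of 0.0676 in limma. JUP, which encodes plakoglobin of desmosomes and adherens junctions, fell by 0.93 (SE 0.09) with JQ1. Its value with I-BET 762 was -0.33 ± 0.10, and the direct difference of -0.60 ± 0.09 passed the test (limma adjusted p = 0.000185).

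Of 14 tested genes elsewhere in the cadherin superfamily, 6 fell and 1 rose with JQ1, and 4 fell and 2 rose with I-BET 762. The shares of all tested symbols were 22.8% down and 13.3% up, and 17.9% down and 8.96% up. DCHS1, the atypical cadherin partner of FAT4, averaged 1200 ± 203 normalized counts in DMSO (SD, n = 3), 283 ± 51.8 for JQ1 (n = 4) and 483 ± 35.4 for I-BET 762 (n = 3). CLSTN3, a calsyntenin of synapses, averaged 462, 93.3 and 141 and CELSR3, of the planar cell polarity group, 1110, 460 and 587. CLSTN2, another calsyntenin, rose from a mean of 20.0 to 103 and 88.4. All 4 passed the test with each inhibitor.

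Regulators of the clustered protocadherins were mostly under 1.5-fold. Of 18 tested, 4 fell with JQ1 and DNMT3A fell with I-BET 762, where 22.8% and 17.9% of all tested symbols fell, so the count with JQ1 was near the background. CTCF, whose product binds the conserved promoter element, averaged 2948, 3122 and 3312 normalized counts in DMSO, JQ1 and I-BET 762. The log2 fold change was 0.08 ± 0.05 with JQ1, or -0.10 with equal totals, and 0.17 ± 0.05 with I-BET 762. RAD21, a cohesin subunit, had -0.38 ± 0.05 and -0.28 ± 0.06, under 1.5-fold. DNMT3A, a de novo DNA methyltransferase, averaged 1257 ± 70.1 (SD, n = 3) in DMSO, 351 ± 12.4 for JQ1 (n = 4) and 439 ± 31.4 for I-BET 762 (n = 3). It fell by 1.84 on the log2 scale with JQ1 (SE 0.07, limma adjusted p = 3.6e-12) and by 1.51 with I-BET 762 (SE 0.08, adjusted p = 2.1e-10). The others that fell with JQ1, named after their values were seen, were the cohesin genes STAG1 (-0.59) and STAG2 (-0.65) and the histone methyltransferase gene SETDB1 (-0.69).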

How the data were processed

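RNA from SK-UT-1 cells was sequenced by the authors. Per the paper and the submitters' processing notes, reads were checked with FastQC 0.73, trimmed (Trimmomatic), mapped by HISAT2 2.2.1 to the hg38 genome, counted with featureCounts 2.0.3 on Gencode V41 genes and normalized with DESeq2, and outlier samples were excluded. The strand setting of the counting is not given in the sources used here. The authors deposited log2 values, log2(normalized count + 1), for 22784 symbols. Within each library 99.73% to 99.77% of the values were whole multiples of the value of a single read (tolerance 0.01 reads), including all values of the 82 genes, which gave the reads behind them. A count of 0 allows up to 3 reads, or 2.73 to 3.30 normalized counts.

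The labelled treatment defined the groups. A limma 3.58.1 model (R 4.3.3) was fitted to the log2 values (10 libraries, empirical Bayes with an intensity trend, Benjamini-Hochberg adjustment), and the code was tested on simulated data. Tables were made in Python 3.11.15 (scipy 1.17.1, pandas 2.3.3, numpy 2.4.6). The genes, lists and alternatives were chosen with earlier results of these data known. Outside the clusters every tested gene was named. In each cluster up to 8 DEGs by size of change and the 3 highest genes per length were named, and from each list the genes called with both inhibitors (up to 3 rises and 3 falls) with CTNNB1, CTNND1, CTNNA1, JUP, CTCF and RAD21. Positions and exon lengths came from Gencode V44 (hg38), and upstream sequences, which matched hg38, from RefSeq. Alternatives were other pseudocounts, filters, scalings and fold thresholds, moderation without a trend, only the groups compared, limma-voom on recovered reads, and each library left out.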

Additional observations from a re-analysis of the deposited data

Results flagged for a closer look

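With 4 libraries, JQ1 was the only group large enough to look for a library apart from the others by Dixon's 95% criterion, in 35 genes. Chance alone would set apart about 1 gene in 20. In JQ1 replicate 20, PCDH1 had 687.66 normalized counts, the highest of its group by a gap of 0.892 of the range. In JQ1 replicate 17, PCDHA10 had 0 normalized counts, the lowest, with a gap of 0.904. PCDHGB2 in JQ1 replicate 17 had 1.10 normalized counts, a single read, and the other JQ1 libraries had none.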

How the results depend on the processing

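No paired analysis was possible because the replicate numbers 13 to 24 all differ. Of 1896 alternative values of 100 log2 fold changes, 1854 kept their direction and their side of the threshold, 29 lost and 2 gained the call, and 11 changed sign. A gene that failed the filter under a setting gave no value there, so a call lost in that way was not counted. Leaving out an I-BET 762 library also leaves every JQ1 log2 fold change as it is, and the reverse holds. The share that stayed the same thus overstates how stable the values are. DEGs numbered 51 of 82 with JQ1 and 46 with I-BET 762 when the filter was dropped, and 7 and 8 of 10 when a mean of at least 100 was required, by the number of genes tested. Leaving out single libraries gave 23 to 31 for JQ1 and 20 to 29 for I-BET 762, the lowest without a DMSO library, when fewer genes passed the filter. Between the inhibitors, DEGs numbered 2 with a mean of at least 100, 2 with only the groups compared, 7 with no fold threshold, 2 to 6 with single libraries left out, and 0 of 37 in limma at over 2-fold, where 11 had an unadjusted p under 0.05, none of them over 2-fold, and limma-voom gave 4 DEGs at 1.5-fold. The share of all symbols called was not counted under these alternatives. With equal totals, JQ1 values changed sign for CDH2 (-0.0259), CDH26 (-0.0398), PCDHGC5 (-0.0792) and CTCF (-0.10). With single libraries left out, CDH26 with JQ1 ranged from -0.13 to 0.48, and PCDHGC5 from -0.0175 to 0.21 (JQ1) and from -0.0906 to 0.0578 (I-BET 762). The I-BET 762 rise of PCDHAC1 also missed the threshold with a pseudocount of 5, no filter, either rescaling, no trend and limma-voom (limma adjusted p 0.0538 to 0.0905). The cause was not tested. Counts under 10 limit what can be said of the 45 untested genes.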
